A study of Mus musculus with 2 samples.

Results

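Expression of 8 genes for immunoglobulin-type adhesion molecules was followed in single cells of the mouse corticoseptal boundary, the midline tissue between cortex and septum that callosal axons cross. The genes were 4 members of the IgLON family, Ntm, Opcml, Lsamp and Negr1, and 4 contactins, Cntn1, Cntn2, Cntn3 and Cntn4, found by their symbols among 32285 measured genes. They were selected on gene family, with their UMI ratios between the libraries in glutamatergic neurons already known, so those ratios are given here as a description. The study held 1 library from a Tcf4f/f;Emx1Cre mouse (Tcf4 cKO), where the Emx1 promoter drives Cre in the dorsal telencephalic lineage, and 1 library from WT, both at E16.5. The alleles of the WT animals and the number of embryos per library are not stated. With 1 library per genotype no difference has a replicate check and no test was possible, so each 95% interval covers counting error only.

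IgLON proteins are small cell-surface molecules held in the membrane by a lipid (GPI) anchor, which bind themselves and each other across and along neuronal membranes and influence neurite growth and synapse formation. Contactins are larger GPI-anchored proteins of axons and glia that bind L1-family proteins, contactin-associated proteins and receptor phosphatases. In the developing forebrain, Cntn2 (also called TAG-1) is known as a protein of growing axons. TCF4, the factor targeted in the mutant, is a basic helix-loop-helix protein that binds DNA at E-boxes, whose letters are CANNTG.

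The genes lie on 6 chromosomes of the mm10 build, by the GENCODE annotation. Opcml (chr9:27790775-28925410, plus strand) and Ntm (chr9:28994750-29963141, minus strand) are neighbours with ends that face each other across 69.3 kb. Lsamp (chr16:39984361-42181679, plus strand) spans 2197 kb and Negr1 (chr3:156561794-157316445, plus strand) spans 755 kb, whereas Cntn2 (chr1:132509427-132543256, minus strand) spans 33.8 kb. Cntn1 lies at chr15:92051165-92341967 on the plus strand, Cntn3 at chr6:102162655-102573101 on the minus strand and Cntn4 at chr6:105677660-106699310 on the plus strand. A few short non-coding genes overlap the members; the antisense ones held 116 UMIs (unique molecular identifiers, tags that count captured transcripts once) against 7633 of Ntm and 40 UMIs against 10083 of Negr1.

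The promoters of the 4 members that differed most between the libraries in glutamatergic neurons are shown because TCF4 binds E-boxes. Each is the stretch of 250 bases before a RefSeq transcript start (GRCm38.p6), 5′ to 3′ on the gene's strand, with every CANNTG match in capitals. The stretches are chr1:132542941-132543190 for Cntn2, chr9:29413453-29413702 for Ntm, chr9:27791049-27791298 for Opcml and chr3:156561544-156561793 for Negr1. The Ntm start shown lies inside the longer GENCODE gene.
Cntn2: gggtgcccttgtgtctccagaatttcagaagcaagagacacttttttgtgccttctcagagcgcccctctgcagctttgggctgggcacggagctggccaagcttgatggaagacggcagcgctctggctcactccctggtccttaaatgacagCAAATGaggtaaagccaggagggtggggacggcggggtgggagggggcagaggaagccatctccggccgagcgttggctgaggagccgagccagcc
Ntm: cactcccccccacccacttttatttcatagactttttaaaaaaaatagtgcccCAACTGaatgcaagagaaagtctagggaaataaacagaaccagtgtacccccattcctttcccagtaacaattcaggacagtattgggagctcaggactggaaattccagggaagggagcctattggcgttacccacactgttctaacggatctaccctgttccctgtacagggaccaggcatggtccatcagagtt
Opcml: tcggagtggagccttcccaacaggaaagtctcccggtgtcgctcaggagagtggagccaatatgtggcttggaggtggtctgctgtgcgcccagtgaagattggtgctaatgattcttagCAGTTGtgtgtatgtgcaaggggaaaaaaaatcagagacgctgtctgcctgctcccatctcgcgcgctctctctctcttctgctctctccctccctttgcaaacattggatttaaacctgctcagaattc
Negr1: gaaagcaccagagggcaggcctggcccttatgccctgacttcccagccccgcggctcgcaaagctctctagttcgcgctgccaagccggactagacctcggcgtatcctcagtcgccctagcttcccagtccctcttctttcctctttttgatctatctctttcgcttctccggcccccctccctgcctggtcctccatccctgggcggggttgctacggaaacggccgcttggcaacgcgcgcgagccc
Cntn2 had 1 match, CAAATG, that began 96 bases before the start. Ntm had 1, CAACTG, at 197 bases, and Opcml had 1, CAGTTG, at 130 bases. Ntm has another RefSeq start, whose stretch (chr9:29412686-29412935, not shown) had 1 match, CATATG, at 230 bases. Negr1, the member that was higher in the cKO library, had none. Cntn1, which was level between the libraries over glutamatergic neurons as a whole, had none at any of its starts. Lsamp, which was higher in cKO, had a match at each of its starts. The motif has the same form on both strands, and 66.2% of 32851 RefSeq promoters of the same length held at least 1 match. A match is a description of these letters, and its absence from the window says nothing of binding elsewhere.

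The cKO library held 121321247 UMIs and the WT library 116998498, of which 10142 cKO cells (median 8152 UMIs) and 8634 WT cells (median 9660 UMIs) were kept. The libraries had 21 cell barcodes in common. Cells were grouped into 31 clusters without use of the 8 genes, and clusters were named by marker genes, so a name stands for a marker-defined, type-like population. Tcf4, the targeted gene, was at 1876 CPM (UMI counts scaled to the UMI total of the class) in cKO and 2809 CPM in WT glutamatergic neurons, a ratio of 0.668 (0.660 to 0.677). It was at 1610 and 2746 CPM in intermediate progenitors, and at 559 and 631 CPM in GABAergic neurons. Since the libraries count 3′ tags and the deleted exon is not given, these counts say nothing of remaining protein. Among glutamatergic neurons the libraries separated. Cluster 4 held 943 cKO and 23 WT cells, and cluster 6 held 11 cKO and 816 WT cells; with 1 library per genotype, such a cluster may reflect a library rather than a cell type.

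Each gene had its own distribution over the cell classes. Opcml and Cntn2 were high in glutamatergic neurons and low in astroglia. Opcml was at 253 CPM in cKO and 443 CPM in WT glutamatergic neurons, against 9.50 and 9.77 CPM in astroglia, the radial glia and astrocyte lineage. Cntn2 was at 59.9 and 327 CPM in glutamatergic neurons and at 1.19 and 3.60 CPM in astroglia. Other classes held them too. Opcml was at 230 CPM in cKO and 180 CPM in WT oligodendrocyte progenitors and at 175 and 148 CPM in Cajal-Retzius cells, early neurons of the cortical surface that secrete reelin. Cntn2 was at 109 CPM in cKO and 115 CPM in WT Cajal-Retzius cells, above glutamatergic neurons in cKO and below them in WT.

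Ntm was high in Cajal-Retzius cells, at 326 CPM in cKO (63 cells) and 252 CPM in WT (74 cells). Among clusters with 50 cells or more in the library, the next was GABAergic cluster 24 in cKO, at 279 CPM, and glutamatergic cluster 6 in WT, at 213 CPM. In cKO the intervals of Cajal-Retzius cells and cluster 24 overlapped, and so did those of Cajal-Retzius cells and cluster 6 in WT. Of smaller groups, the 23 WT cells of cluster 4 stood at 254 CPM and the 31 WT cells of cluster 24 at 211 CPM. In intermediate progenitors, which arise from radial glia and divide into neurons, Ntm was low, at 2.53 and 2.44 CPM.

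Lsamp, the limbic system-associated membrane protein, was shared by neurons and glia. Cajal-Retzius cells held 261 CPM in cKO and 220 CPM in WT, and oligodendrocyte progenitors (39 cKO and 37 WT cells) held 256 and 298 CPM. Astroglial cluster 13, led by Creg2, Mt3 and Ano1, was at 229 and 222 CPM. The Cajal-Retzius and cluster 13 intervals overlapped in both libraries. In glutamatergic neurons Lsamp was at 38.4 CPM in cKO and 22.3 CPM in WT. RNA outside cells (free RNA) held it at 42.7 and 54.8 CPM, but makes up only a part of a neuron's UMIs.

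Negr1, neuronal growth regulator 1, had its highest level among the named classes in GABAergic neurons, at 119 CPM in cKO and 103 CPM in WT. Glutamatergic neurons held it at 75.1 and 30.9 CPM. In cKO, 2286 of its 5895 UMIs lay in GABAergic neurons and 1818 in glutamatergic neurons. The cluster order differed at the top. In cKO it ran from GABAergic cluster 21 (213 CPM) to cluster 15 (174 CPM) and GABAergic cluster 1 (162 CPM), and neighbouring intervals overlapped. In WT cluster 1 stood above all others at 145 CPM, followed by GABAergic cluster 14 at 115 CPM.

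Cntn1, the contactin that pairs with Caspr at the junction of axon and myelin, was highest in oligodendrocyte progenitors, at 614 CPM in cKO and 579 CPM in WT. Its ratio there was 1.06 (0.889 to 1.26). In every other class named here it stayed below 20 CPM, apart from the small ependymal or choroid plexus class at 185 and 111 CPM (24 and 35 cells). Cntn3 and Cntn4, contactins that promote neurite growth in culture in the rat, were the rarest, with 83 and 71 UMIs of Cntn3 and 151 and 108 UMIs of Cntn4 in all cKO and WT cells. Cntn3 stood at 7.35 CPM in cKO (9 UMIs) and 16.8 CPM in WT (26 UMIs) in cluster 23 (unnamed, led by Gng8, C1ql1 and Onecut2), its first cluster of 50 cells or more in each library, with an interval that overlapped the next. Cntn4 was at 8.16 and 14.8 CPM in cluster 23, on 10 and 23 UMIs. GABAergic neurons held 86 of the 151 cKO and 32 of the 108 WT UMIs of Cntn4, and in cKO its highest cluster was GABAergic cluster 24, at 25.3 CPM.

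**Figure D1:**
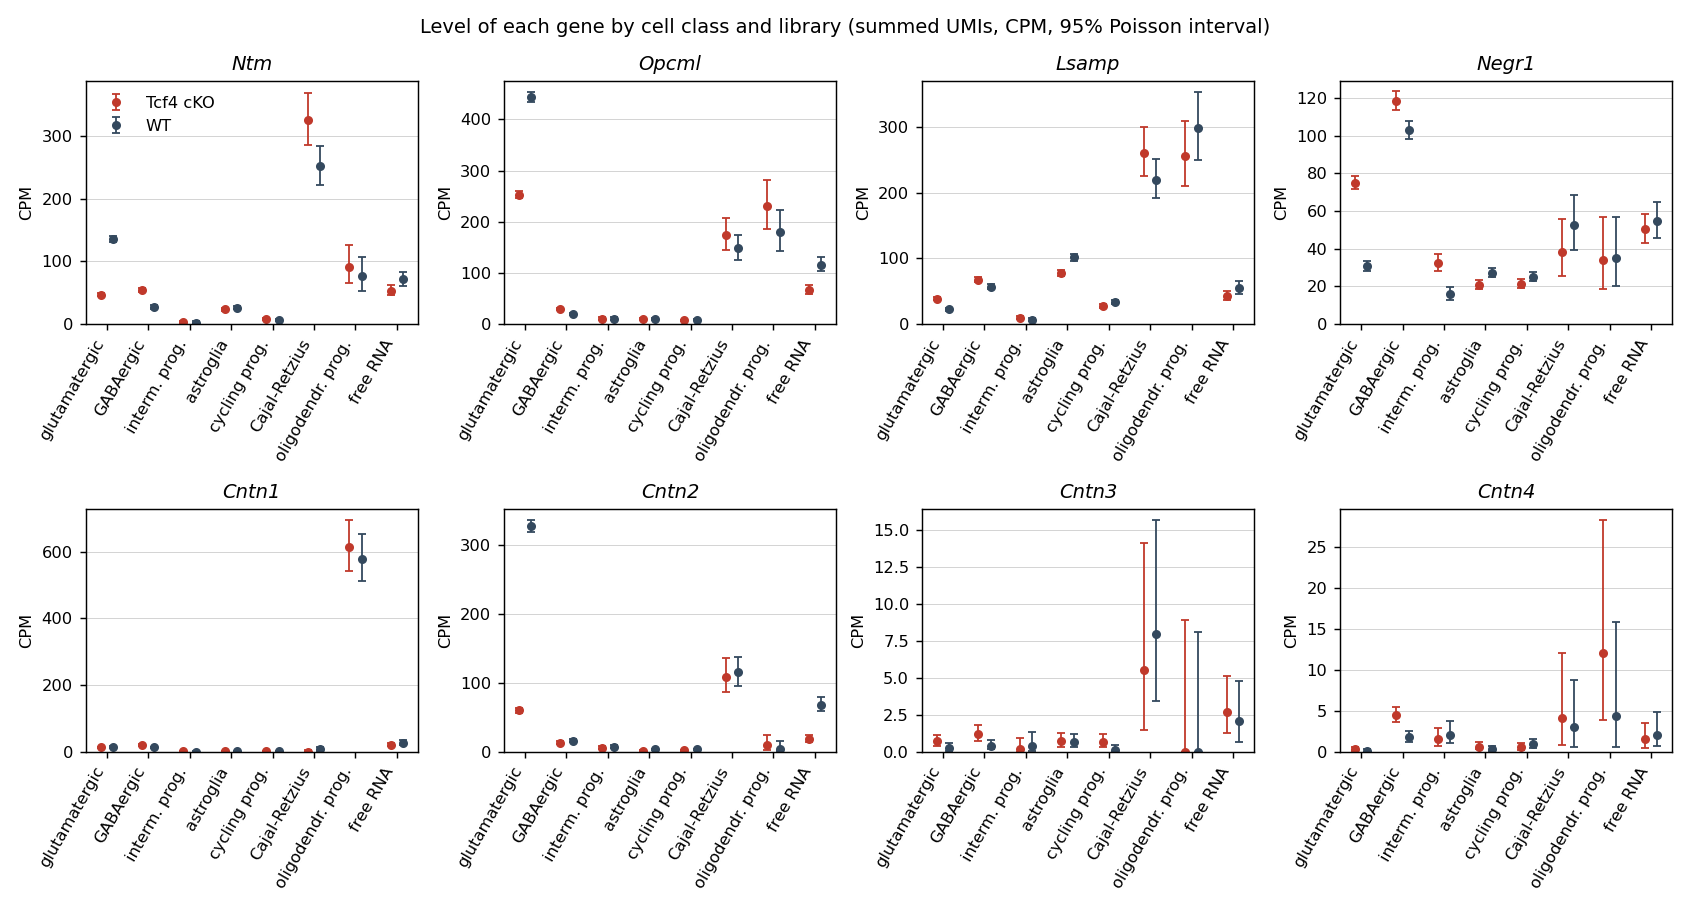
Level of each of the 8 genes (vertical axis, CPM, linear, a separate scale per gene) in 7 cell classes and in free RNA (horizontal axis). Points are summed UMIs of 1 library, Tcf4 cKO left and WT right, and bars are 95% Poisson intervals, which cover counting error only. Cntn2 in glutamatergic neurons stands at 59.9 CPM in cKO and 327 CPM in WT, while Cntn1 in oligodendrocyte progenitors stands at 614 and 579 CPM.

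Transcripts outside cells were read from droplets of 10 to 100 UMIs, whose RNA leaks from broken cells and enters other droplets. This free RNA was estimated from haemoglobin, in neurons where haemoglobin was at most 0.1% of UMIs. That limit can only lower the estimate, which was 1.20% of a neuron's UMIs in cKO and 2.28% in WT. Free RNA held Cntn2 at 19.0 CPM in cKO and 68.4 CPM in WT, Opcml at 66.8 and 116 CPM, Ntm at 53.3 and 71.3 CPM and Negr1 at 50.3 and 54.8 CPM. The low levels of Cntn2 and Opcml in astroglia and progenitors lay below those of free RNA in the same library. Free RNA makes up only a part of a cell's UMIs, and its part in these levels was not tested.

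The contrast of glutamatergic neurons, the class that includes neurons with callosal axons, showed differences in both directions among the IgLON genes and a large one in Cntn2. Of the 8 members, 6 had at least 50 UMIs over both libraries. On the log2 scale with 5 CPM added, 2 of the 6 were more than 1.5-fold higher in cKO and 3 more than 1.5-fold lower. Over all 12043 genes with 50 UMIs in the class, 2.72% were past 1.5-fold, 1.47% higher and 1.25% lower. Since the members were picked for this contrast, nothing is read from their share.

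Cntn2 held 1450 UMIs in cKO and 5894 UMIs in WT glutamatergic neurons. It was 5.46-fold lower in cKO (5.16 to 5.79), a log2 ratio of -2.36. In cells thinned to 3000 UMIs each, 15.5% (14.1 to 16.9) of cKO neurons and 55.3% (52.9 to 57.7) of WT neurons had a Cntn2 UMI. Without thinning these shares were 32.5% and 82.4%, at median depths of 7934 and 9992 UMIs. Microglia, which should lack the gene, had Cntn2 in 0 of 58 thinned cKO cells and 0 of 55 thinned WT cells (Clopper-Pearson upper limits 6.16% and 6.49%). Their median depths were 8746 and 10061 UMIs. Without thinning, 3.45% of cKO and 5.45% of WT microglia had a Cntn2 UMI. Endothelial cells held 0 Cntn2 UMIs in cKO (38 cells) and 18 in WT (56 cells), at 12.5 CPM in WT.

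Ntm, neurotrimin, was at 47.0 CPM in cKO and 136 CPM in WT glutamatergic neurons. It was 2.89-fold lower in cKO (2.69 to 3.10), and thinned cells had a UMI in 8.96% and 20.9% of cases. Opcml, the opioid-binding protein and cell adhesion molecule-like gene beside it, was 1.75-fold lower (1.69 to 1.81), with 31.7% and 43.2% of thinned cells positive. The 2 neighbours on chromosome 9 were thus both lower in the class, by different amounts.

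Negr1 and Lsamp lay on the other side. Negr1 was at 75.1 CPM in cKO and 30.9 CPM in WT, a ratio of 2.43 (2.21 to 2.68). Its thinned share was 20.1% in cKO and 9.93% in WT, against 0 of 58 and 0 of 55 thinned microglia (upper limits 6.16% and 6.49%). Without thinning, 37.9% of cKO and 25.0% of WT neurons had a Negr1 UMI, against 6.90% and 9.09% of microglia, where Negr1 stood at 6.33 CPM (4 UMIs) and 17.8 CPM (12 UMIs). Lsamp, with 929 and 402 UMIs, had a ratio of 1.72 (1.53 to 1.94), and 12.2% and 6.76% of thinned cells held it. Without the clusters that hold fewer than 50 cells of either library its log2 ratio was 0.32 in place of 0.67, no longer past 1.5-fold. Over the class as a whole Cntn1 was level, at 14.0 and 14.1 CPM, a ratio of 0.996. Glutamatergic cluster 11 held 92.4% of its UMIs in cKO and 55.5% in WT, and there it was past 1.5-fold lower in cKO. With shared clusters weighted equally the class log2 ratio of Cntn1 was -0.73. Cluster make-up and level per cell cannot be told apart in its class ratio. Cntn3 (17 and 4 UMIs) and Cntn4 (7 and 1 UMIs) were too rare to compare.

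Markers of other cell types were also present at low level in this class. The 12 astroglial markers summed to 636 CPM in cKO and 491 CPM in WT, and the 10 GABAergic markers to 61.0 and 50.8 CPM. The 5 red-cell markers summed to 1334 and 1544 CPM. Their part in the ratios was not tested. Fewer cells that express a gene and fewer transcripts per cell both lower a class level.

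**Figure D2:**
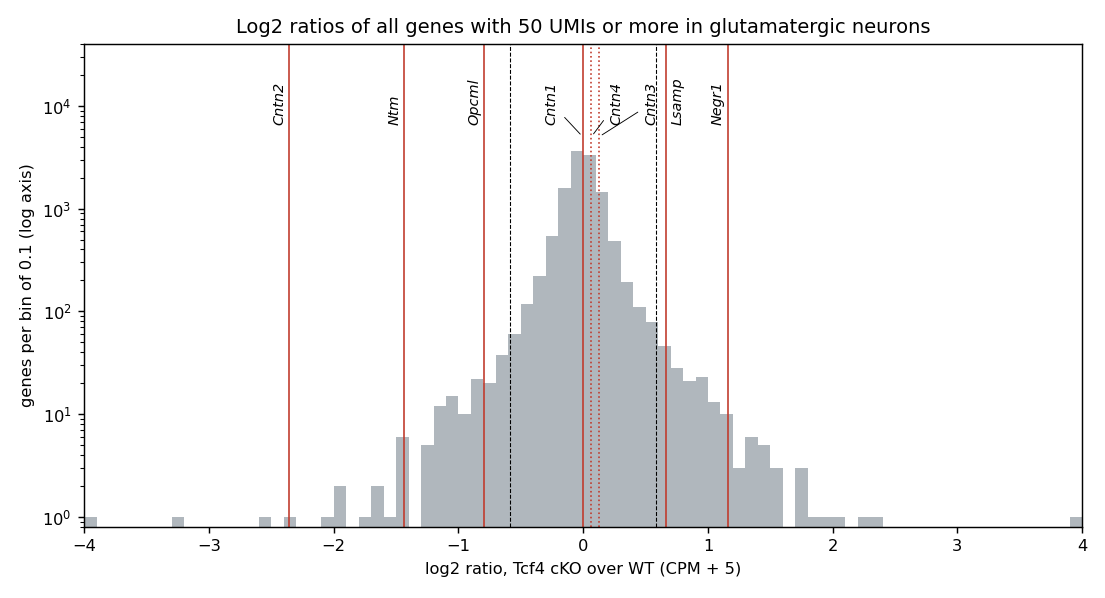
Distribution of log2 ratios, Tcf4 cKO over WT on CPM + 5 (horizontal axis), of all 12043 genes with 50 UMIs or more in glutamatergic neurons (grey bars, genes per bin of 0.1, log axis). Red lines mark the 8 genes, dotted for Cntn3 and Cntn4, which had fewer than 50 UMIs, and dashed black lines mark 1.5-fold. Cntn2 at -2.36 and Ntm at -1.44 lie in the lower tail, Negr1 at 1.16 in the upper one, and Cntn1 beside 0.

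The class ratios mixed clusters that differed in size between the libraries, and the members were spread unevenly over these clusters. In WT, cluster 6 (led by Kcnq3 and Cck, with Cntn2, Opcml and Ntm themselves among its 10 leading genes) held 48.8% of the class but 83.6% of its Ntm UMIs, 79.7% of its Opcml UMIs and 68.4% of its Cntn2 UMIs. In both libraries cluster 0, led by Neurod1, Rnd2 and Unc5d, held most Lsamp UMIs (71.4% in cKO and 70.4% in WT) and most Negr1 UMIs (62.0% and 68.0%). Cluster 11, led by Crym, Rgs4 and Mef2c, held 20.1% of cKO and 5.80% of WT cells of the class, and 92.4% and 55.5% of the Cntn1 UMIs. Ntm and Opcml were thus transcripts of clusters 4, 6 and 11, and Negr1 and Lsamp of cluster 0.

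Cntn2 was lower in cKO in each of the 3 clusters of this kind that both libraries filled. In cluster 0 (1293 cKO and 736 WT cells) it was at 58.8 CPM in cKO and 249 CPM in WT, a ratio of 0.236 (0.214 to 0.260). In cluster 11 (565 and 97 cells) it was at 23.6 and 95.4 CPM, a ratio of 0.247 (0.198 to 0.309). The largest difference lay in cluster 15 (264 and 281 cells), an unnamed cluster nearest to glutamatergic neurons and led by Cyp26b1, Cck and Zfp385b, at 43.7 and 307 CPM, 7.02-fold lower in cKO. Of all genes with 50 UMIs, 2.98% were past 1.5-fold in cluster 0, 6.56% in cluster 11 and 6.97% in cluster 15. The libraries also stood apart inside these clusters. Of a cell's 15 nearest neighbours, 78.0% in cluster 0, 90.8% in cluster 11 and 88.9% in cluster 15 came from its own library. In GABAergic cluster 1 (1000 cKO and 820 WT cells) the share was 53.5%. The ratios within clusters 0, 11 and 15 may thus not compare like cells, which was not tested.

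The few cells that fell into the other library's cluster followed their library for Cntn2 and not their cluster. The 23 WT cells of cluster 4 held 343.5 CPM of Cntn2 (269 to 432), against 93.0 CPM in the 943 cKO cells beside them. The 11 cKO cells of cluster 6 held 105 CPM (50.5 to 194), against 420 CPM in the 816 WT cells. These small groups rest on 73 and 10 UMIs of Cntn2.

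Negr1 was higher in cKO in the same clusters. Its ratio was 2.09 (1.86 to 2.36) in cluster 0, 5.78 (3.09 to 12.2, from 241 cKO and 10 WT UMIs) in cluster 11 and 2.29 (1.99 to 2.64) in cluster 15. It was also past 1.5-fold in intermediate progenitors, at 32.5 CPM in cKO and 15.9 CPM in WT, a ratio of 2.04 (1.57 to 2.66), where 1.75% of genes were. No other member was past 1.5-fold in intermediate progenitors. Lsamp was past 1.5-fold in cluster 0 (ratio 1.65) and cluster 11 (ratio 1.94, from 81 and 10 UMIs), but was at 45.3 CPM in cKO and 54.3 CPM in WT in cluster 15.

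Ntm and Opcml depended on the cluster. In cluster 11 Ntm was at 60.5 CPM in cKO and 196 CPM in WT, 3.24-fold lower, and Opcml at 522 and 820 CPM, 1.57-fold lower (ratio interval 0.597 to 0.677). In cluster 0 both were low, Ntm at 3.66 and 2.90 CPM and Opcml at 19.2 and 18.3 CPM. In cluster 15 Opcml was level at 342 and 322 CPM, and Ntm was at 5.29 and 14.7 CPM on 16 and 61 UMIs. When the clusters with fewer than 50 cells of either library, 4 and 6, were left out and clusters 0 and 11 were summed, the Opcml log2 ratio was 0.36 in place of -0.79, a sum in which cluster 11 contributed 565 cKO and 97 WT cells. Cluster make-up and level per cell cannot be told apart in the Opcml class ratio. Under that choice the log2 ratio was -0.52 for Ntm and 0.32 for Lsamp, neither past 1.5-fold, while Negr1 at 0.77 and Cntn2 were. The Cntn1 level in cluster 11 was 44.9 CPM in cKO and 84.1 CPM in WT.

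**Figure D3:**
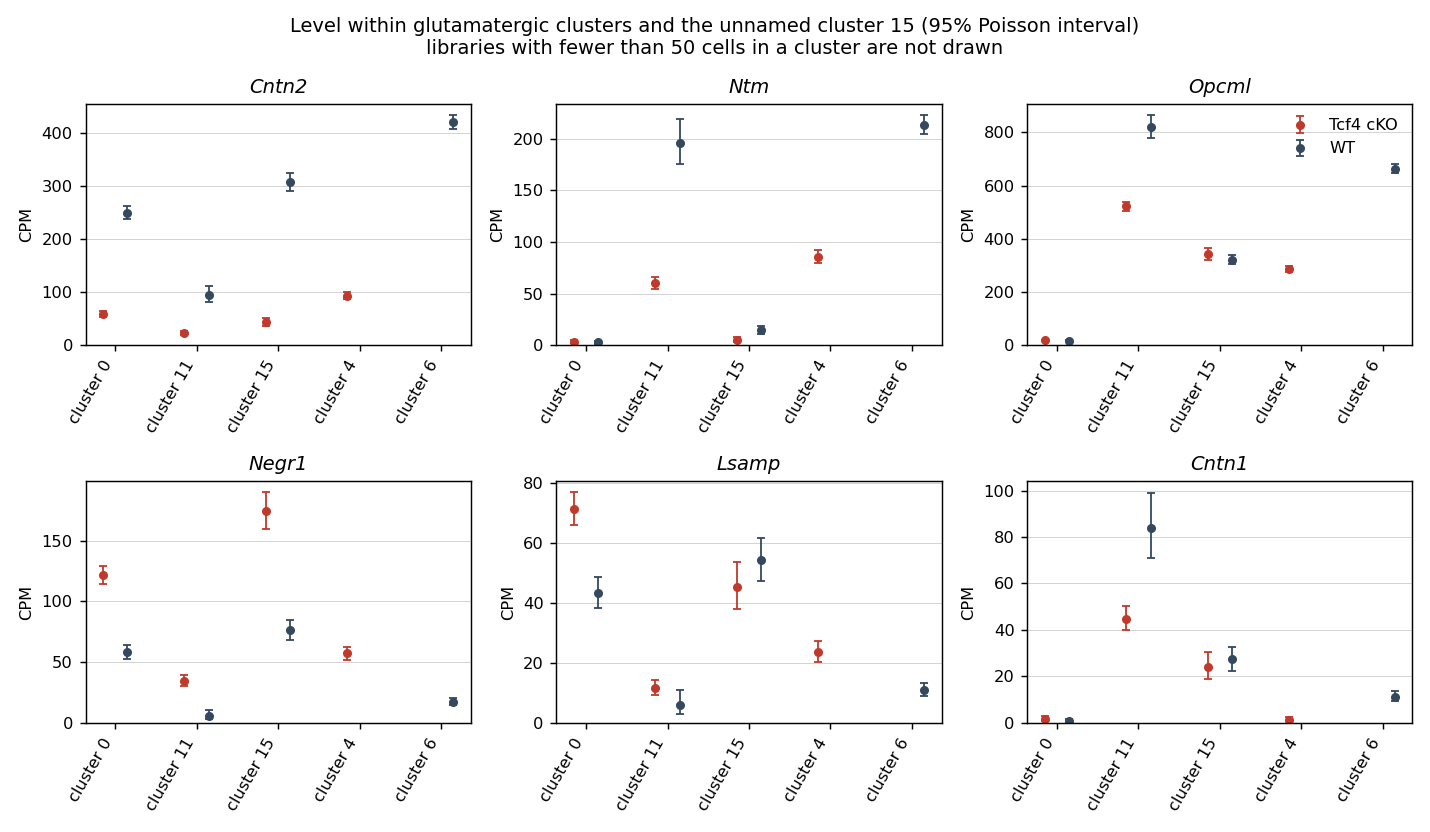
Level (vertical axis, CPM, linear) of 6 genes within glutamatergic clusters 0, 11, 4 and 6 and the unnamed cluster 15 (horizontal axis). Points are sums over the cells of 1 library, Tcf4 cKO left and WT right, with 95% Poisson intervals, and a library with fewer than 50 cells in a cluster is not drawn. Cntn2 is lower in cKO in clusters 0, 11 and 15, Negr1 is higher in all 3, and Opcml in cluster 15 is level at 342 CPM in cKO and 322 CPM in WT.

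The members also differed in which cells held them together. Within WT cluster 6, thinned cells with Ntm held Opcml in 86.3% of cases, against 64.1% of cells without Ntm. Cntn2 did not follow, in 59.7% of cells with Ntm and 73.8% of cells without. Cluster 11 did not repeat this. There Opcml was in 76.9% of cKO cells with Ntm and 74.1% without, and in 88.9% and 88.5% of WT cells. Cntn2 was in 11.5% and 6.57% of these cKO cells and in 25.0% and 18.0% of these WT cells, with overlapping intervals. Within cKO cluster 4, Negr1 was in 3.1% of cells with Ntm (1.0 to 7.1) and in 18.0% of cells without (15.4 to 20.9), while Opcml was in 47.2% and 43.0%. A neuron of the class held 0.913 of the 8 members on average in cKO and 1.39 in WT.

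GABAergic neurons of the forebrain come mostly from the subpallium, where Emx1 is not active, and gave a different picture. Of 7 members with 50 UMIs, 1, Ntm, was past 1.5-fold, where 0.653% of 12101 genes were. Ntm was at 55.0 CPM in cKO (1060 UMIs) and 27.2 CPM in WT (486 UMIs), a ratio of 2.02 (1.82 to 2.26), opposite to its ratio in glutamatergic neurons. Opcml had a ratio of 1.56, Cntn1 of 1.51 and Cntn4 of 2.49 (86 and 32 UMIs, 1.64 to 3.87), none past 1.5-fold once 5 CPM were added. Cntn2 was at 13.3 and 15.9 CPM and Negr1 at 119 and 103 CPM.

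Of the GABAergic clusters, cluster 24 differed most between the libraries in its share of the Ntm UMIs. Cluster 24, led by Nwd2, Gbx1 and Nefm, held 160 cKO and 31 WT cells and 41.6% and 14.0% of the Ntm UMIs of the class. Within it Ntm was at 279 CPM in cKO and 211 CPM in WT. In cluster 21, led by Tac1, Ebf1 and Zfp503, 4 of 5 IgLON genes, all but Iglon5, were higher in cKO, where 8.17% of genes were past 1.5-fold. Ntm was at 150 and 54.7 CPM there, Opcml at 44.2 and 13.7 CPM, Negr1 at 213 and 84.7 CPM, and Lsamp had a ratio of 2.06. Cluster 14, led by Lhx8 and Lhx6, went the other way for Ntm (ratio 0.55), Opcml (0.41) and Cntn1 (0.46), with 5.45% of genes past 1.5-fold, and Tcf4 itself was higher in cKO there (ratio 1.86). In cluster 1, the largest, with 27.5% of the Ntm UMIs of the class in cKO and 35.6% in WT, the Ntm ratio was 1.49 (1.23 to 1.81). Without cluster 24, no member of the class was past 1.5-fold.

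Astroglia and cycling progenitors showed no member past 1.5-fold, with 1.90% and 0.716% of all genes past it. In astroglia Lsamp was at 78.2 CPM in cKO and 102 CPM in WT, a ratio of 0.769 (0.713 to 0.830). This ratio mixed clusters of unequal size, as cluster 20 held 92 cKO and 280 WT cells. Lsamp was at 209 CPM in cKO and 177 CPM in WT in cluster 20, and at 229 and 222 CPM in cluster 13. In cluster 5 Lsamp was at 110 and 123 CPM, not past 1.5-fold. It was low in clusters 8 (3.56 and 8.15 CPM) and 10 (8.04 and 9.29 CPM). These 2 clusters held 1.16% and 3.04% of the Lsamp UMIs of the class in cKO and 1.44% and 1.80% in WT. No direction is read from such low counts. With shared clusters weighted equally the class log2 ratio of Lsamp was 0.05 in place of -0.36. Over the whole class Negr1 was at 20.9 and 27.2 CPM. Cntn2, with 17 and 59 UMIs, had a ratio of 0.330 (0.180 to 0.574), and free RNA held it at a ratio in the same direction. In Cajal-Retzius cells, whose Tcf4 ratio was 0.448, Cntn2 was at 109 and 115 CPM (ratio 0.944, 0.700 to 1.27) and Ntm had a ratio of 1.29 (1.08 to 1.55). No member was past 1.5-fold there, where 5.64% of genes were. In 2 smaller classes 1 member each was. Cntn1 had a ratio of 1.67 (1.25 to 2.23) in ependymal or choroid plexus cells, where 22.4% of genes were past 1.5-fold and the median log2 ratio of all genes was -0.26. Lsamp had a ratio of 0.466 (0.243 to 0.853, from 16 and 39 UMIs) in endothelial cells, where 9.44% were.

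Over the 24 clusters with at least 50 cells of each library, Negr1 had 50 UMIs in 22 and was past 1.5-fold higher in 5 and lower in 1. Cntn2 was measurable in 10 clusters and lower in 3, with none higher. Ntm was measurable in 16 clusters, higher in 2 and lower in 3. Lsamp was higher in 3 and lower in 1 of 20, Opcml higher in 1 and lower in 2 of 17, and Cntn1 lower in 2 of 6. The 3 clusters with lower Cntn2 were clusters 0, 11 and 15, and the 5 with higher Negr1 were those and clusters 3 and 21. Negr1 was lower in GABAergic cluster 22, Lsamp in cycling cluster 9, and Ntm was higher in clusters 12 and 21. Of all genes, 5.31% were past 1.5-fold in cluster 22, 1.5% in cluster 9 and 1.89% in cluster 12.

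**Figure D4:**
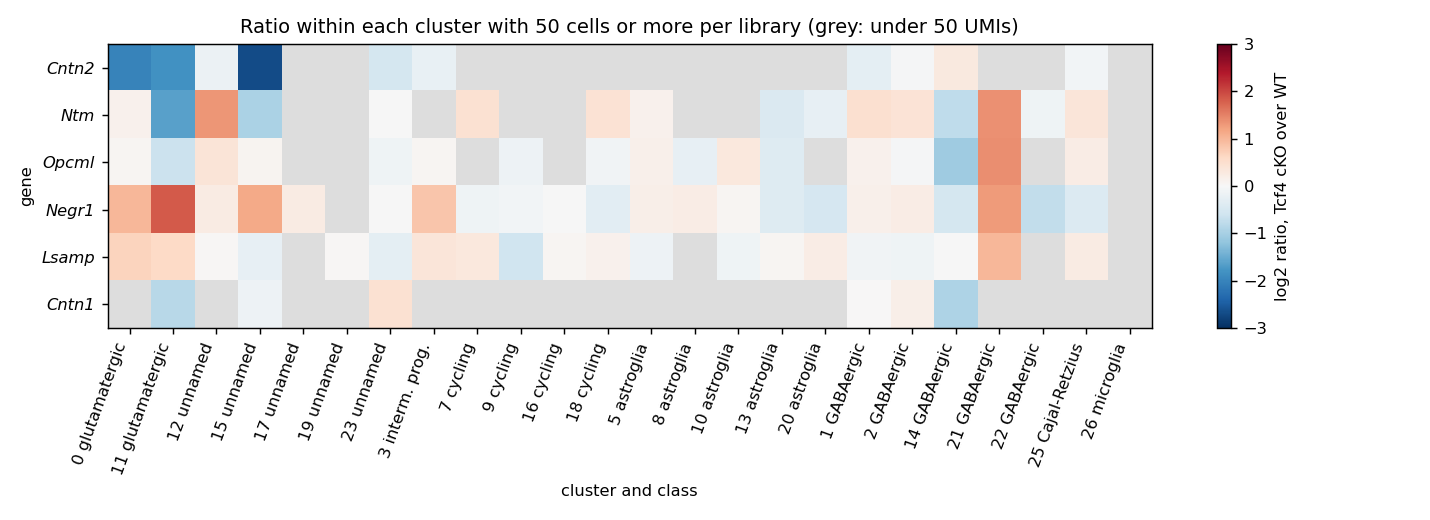
Log2 ratio, Tcf4 cKO over WT on CPM + 5 (colour, blue lower and red higher in cKO), of 6 genes (vertical axis) within each cluster that has 50 cells or more of each library (horizontal axis, cluster number and class). Grey marks fewer than 50 UMIs over both libraries. Cntn2 is blue in clusters 0, 11 and 15 and Negr1 is red in the same 3, while in GABAergic cluster 21 the 4 IgLON genes drawn are red.

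Other genes of these adhesion systems were set beside the members in glutamatergic neurons. Of the contactins, Cntn5 was higher in cKO, at 29.3 CPM in cKO and 10.2 CPM in WT (ratio 2.87, 2.44 to 3.40). It was mostly a cluster 11 transcript, at 89.5 CPM in cKO and 59.0 CPM in WT there. Iglon5, the remaining IgLON gene, was at 38.6 and 40.2 CPM, and Cntn6 had 11 and 3 UMIs. Of the 3 contactin-associated genes with 50 UMIs none was past 1.5-fold in the class, with Cntnap2, a Caspr-family partner of contactins, at 28.4 and 17.4 CPM. Within clusters 0, 11 and 15 Cntnap2 was past 1.5-fold higher in cKO, where 2.98%, 6.56% and 6.97% of all genes were past it either way.

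The L1 family, partners of Cntn2 on axons, had 1 of 4 genes higher and 1 lower. Nrcam was at 61.0 CPM in cKO and 36.9 CPM in WT, and Nfasc, neurofascin, at 50.4 and 82.4 CPM. L1cam was at 122 and 135 CPM and Chl1 at 274 and 288 CPM, neither past 1.5-fold. Nfasc was lower in cKO in cluster 0 (50.9 and 92.3 CPM) and cluster 15 (55.3 and 86.9 CPM) but not in cluster 11 (47.3 and 50.7 CPM). Of 5 other contactin partners, Tnr, the matrix protein tenascin-R, was lower at 5.29 and 13.8 CPM.

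Of 17 other immunoglobulin adhesion genes measured, 2 were higher and 3 lower. Cadm1 was at 189 CPM in cKO and 101 CPM in WT, and Kirrel3 had a ratio of 1.81. Cadm2 was at 34.9 and 79.4 CPM, and Dscam and Nectin3 had ratios of 0.55 and 0.47. Cadm1 and Cadm2, synaptic adhesion molecules of 1 family, thus differed in opposite directions, as Ntm and Negr1 did. Cadm3 and Cadm4, also on this list, were not called past 1.5-fold. The median log2 ratio of this list was 0.04, beside -0.01 over all genes of the class.

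Of the 8 members, 5 span 500 kb or more, so length was looked at on its own. Of 173 other genes of 500 kb or more with 50 UMIs, 22 were higher and 11 lower, 19.1% in all beside 2.72% of all genes, and their median log2 ratio was 0.06. Cell-state lists were mixed. Deep-layer genes had 2 of 8 higher (Foxp2 and Rprm) and upper-layer genes 2 of 7 higher (Cux2 and Pou3f2). Of 6 newborn neuron genes, Neurod1 was higher and Nhlh1 lower, and 0 of 8 neuronal maturation genes were past 1.5-fold, with a median of -0.08. Within single clusters these lists differed more. In cluster 11, 4 of 4 newborn neuron genes measured were higher in cKO (Neurod1, Nhlh2, Sema3c and Unc5d, median log2 ratio 1.45, beside 0.02 over all genes). In cluster 15, 4 of 8 maturation genes were lower (Syt1, Nefl, Nefm and Rbfox3, median -0.41, beside 0.02). In cluster 0, 3 of 5 upper-layer genes were higher (median 0.75). The same lists did not repeat over these clusters. In cluster 0, 0 of 6 newborn neuron genes were higher and 1 lower, and 0 of 7 maturation genes were past 1.5-fold. In cluster 11, 1 of 7 maturation genes was lower, and of 4 upper-layer genes 1 was higher and 1 lower. In cluster 15, 1 of 4 newborn neuron genes was higher, and of 5 upper-layer genes 1 was higher and 2 lower. These are the clusters in which Cntn2 was lower and Negr1 higher, and the part of these lists in the ratios of the members was not tested.

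Genes with a like pattern were named by Pearson's r of log2(CPM + 5) over 52 cluster-by-library sums, among 11416 genes with 500 UMIs, sex-linked genes left out. These sums share libraries, depth and clusters, so r is a description. The 3 genes most like Cntn2 were Fam114a2 (r = 0.90), Efna3 and Dyrk2, and those most like Opcml were Sh3gl2, Gpr12 and Slc1a1. Negr1 was most like Tmx4, Scn1a and Usp32, Lsamp most like Syne1, Cntnap2 and B4gat1, and Ntm most like Fam177a, Tspyl3 and Ndfip2. Cntn1 was most like Phf24, Ptprr and Plppr4, Cntn3 most like Brinp3, Gng8 and Cdkl2, and Cntn4 most like Nwd2, Brinp3 and Syt13. Among the members themselves, Opcml and Cntn2 were most alike (r = 0.78), and Ntm and Opcml, the chromosome 9 neighbours, had r = 0.63.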

How the data were processed

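Single-cell 3′ libraries of dissociated E16.5 corticoseptal boundary tissue were used, 1 Tcf4 cKO and 1 WT. Deposited values are unnormalised UMI counts of every gene in every barcode, empty droplets included. Per the file headers they come from Cell Ranger 7.1.0, while version 2.1.1 and the mm10 build stand in the submitters' processing notes. The intron setting is not given in the sources used here; counting introns would raise long genes.

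Barcodes were kept as cells at 3341 UMIs (cKO) or 3348 UMIs (WT), the percentile 99 of the 5000 largest totals divided by 10. Cells also needed 500 genes and at most 10% mitochondrial UMIs. Scrublet (scanpy 1.11.5, expected rate 6%) removed 526 cKO (4.93%) and 330 WT (3.68%) cells as doublets. Cells were clustered on 2000 variable genes, 30 components and 15 neighbours (Leiden, resolution 1), leaving out the members, Tcf4, the gene lists and genes of 500 kb or more. Marker lists gave the class names; the naming rules were settled after clusters were seen, and 10.5% of cKO and 15.1% of WT cells stayed unnamed.

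UMIs were summed per class and library. CPM have exact Poisson, ratios exact conditional binomial and shares Clopper-Pearson intervals, all at 95%. Log2 ratios add 5 CPM. Genes with 50 UMIs over both libraries were compared, and a call means past 1.5-fold. Named genes were the members, Tcf4, the listed genes and the 3 genes most like each member. Sequences came from RefSeq and gene positions from GENCODE, which held 32235 of 32285 identifiers. The calculation of calls and ratios was checked on simulated Poisson counts with set fold changes. These counts held no variation between animals or libraries and no shift in cluster make-up, so the check covers counting error only. The members and lists were chosen with earlier results of these data known. Alternatives changed the cell calling, doublet, clustering, depth, free RNA, pseudocount and class-sum choices.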

Additional observations from a re-analysis of the deposited data

Results flagged for a closer look

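Ntm differed in opposite directions in the 2 largest neuron classes. Its log2 ratio (cKO over WT) was -1.44 in glutamatergic neurons and 0.90 in GABAergic neurons, a difference of -2.33. With 1 library per genotype the difference itself was not tested. The glutamatergic value rests mostly on clusters 4 and 6, which are nearly private to 1 library each, and on cluster 11, where Ntm was 3.24-fold lower in cKO. In the GABAergic class the size of cluster 24 differed, at 160 cKO and 31 WT cells.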

How the results depend on the processing

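No paired analysis was possible because each genotype has 1 library. Under 14 alternatives, 98 values of the 7 gene and class pairs past 1.5-fold in the 5 largest named classes, the only classes recomputed, gave 71 within the interval of the reported value, 26 that moved and 1 that reversed: the Opcml log2 ratio in glutamatergic neurons was 0.36 in place of -0.79 without clusters holding fewer than 50 cells of either library, an alternative chosen after seeing the data. In glutamatergic neurons Cntn2 ranged from -2.45 to -1.88, Ntm from -1.51 to -0.52, Negr1 from 0.77 to 1.37 and Lsamp from 0.32 to 0.81. Cntn1, level in the reported setting, ranged from -0.73 to 0.32 and kept its sign in 6 of the 14 alternatives. The count of members past 1.5-fold in glutamatergic neurons, 5, was 3 with the UMI minimum doubled and 2 without the clusters under 50 cells. In GABAergic neurons, 1 became 2 with the UMI minimum doubled, with a mitochondrial limit of 5% and with free RNA subtracted, 3 with a pseudocount of 1 CPM, and 0 with shared clusters weighted equally or without the clusters under 50 cells. In intermediate progenitors, 1 became 0 with the UMI minimum doubled, at Leiden resolution 2 and with a pseudocount of 20 CPM. In astroglia, 0 became 1 with doublet calls kept and with a pseudocount of 1 CPM, and in cycling progenitors 0 became 1 with a pseudocount of 1 CPM. Where no value shows it, the cause was not tested. Depth limits Cntn3 and Cntn4, which had fewer than 50 UMIs in every shared cluster.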
